A study of Caenorhabditis elegans with 16 samples.

Results

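Small RNA reads from chromosomes II and III of the nematode Caenorhabditis elegans were described in bins of 100 kb. The bins were taken by chromosome and by no measured value, and numbered 291 (153 on chromosome II and 138 on chromosome III) of the 1006 bins of the deposited genome table (ce11). Small RNA was sequenced from whole adult males of 4 genotypes in 16 libraries: a prg-1 null mutant (n = 5), a prg-1 RNase mutant, named RNase dead in the design text (n = 3), a prg-1 mutant deleted for the PAZ domain, called ΔPAZ here (n = 3), and wild type (n = 5). Each sample pooled 20 to 30 males, chosen at mid-L4, kept at 25 °C and collected 24 hours later, with no agent applied. Alleles, strains and the origin of the replicates are not stated in the labels, so every p-value rests on the spread between these samples. That spread may be technical. Each library pools whole males, with the germline and all other tissues together, so fewer cells of a type and less small RNA per cell cannot be told apart.

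PRG-1 is the Piwi-class Argonaute protein that holds the piRNAs of this worm, the 21U-RNAs. When PRG-1 meets a target transcript, RNA-dependent RNA polymerases can make secondary small RNAs antisense to that transcript, which carry a 5′ triphosphate and are loaded onto other Argonautes that silence the gene. The RNA was treated with acid pyrophosphatase before cloning, so small RNAs of this kind could enter the libraries beside microRNAs, 21U-RNAs and fragments of longer RNAs. Most 21U-RNA genes lie on chromosome IV, and chromosomes II and III serve here as a sample of the rest of the autosomes, with the 187 annotated 21U-RNA genes of these chromosomes spread over 125 bins.

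Genome-mapped reads ranged from 396813 to 2288967 per library, so that 1 read was worth between 0.437 and 2.52 RPM (reads scaled to 1000000 genome-mapped reads). The lowest count of any chromosome II or III bin in any library was 10, and all 291 bins passed the filter on low counts. Wild type replicate 3 was the lowest wild type library in 219 of the 291 bins. In that library the 3 bins with most reads in the genome took 37.9% of all reads, against 15.1 to 23.8% in the other wild type libraries. ΔPAZ replicate 1 was the lowest ΔPAZ library in 181 bins and replicate 3 the highest in 189. The coefficient of variation of a bin between libraries of a genotype had a median of 18.5% in the null, 14.7% in the RNase mutant, 27.9% in ΔPAZ and 30.6% in wild type. Each bin spans several to many genes, and its count cannot be split by gene or strand, so the loss of prg-1 itself, on chromosome I, was not checked. The genes given beside a bin only say where it lies and were chosen after its values were seen.

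Together the bins of chromosomes II and III held 35.0 ± 0.867% of genome-mapped reads in the RNase mutant, 29.6 ± 2.13% in the null and 18.0 ± 3.24% in ΔPAZ, against 25.4 ± 5.45% in wild type (mean ± SD). The 3 RNase libraries, at 34.1 to 35.9%, lay above the 5 wild type libraries, at 18.6 to 32.4%. Null and ΔPAZ libraries overlapped wild type. Chromosome III gave the larger part of this difference. Its share was 19.6 ± 0.911% in the RNase mutant against 11 ± 2.56% in wild type, and without its single bin with most reads it was 9.45 ± 0.263% in the RNase mutant against 7.45 ± 1.67% in wild type. Without that bin the RNase libraries overlapped wild type, on chromosome III and on both chromosomes together. For both together the range was then 24.4 to 25.7% in the RNase mutant against 15.2 to 26.2% in wild type. Reads were unevenly spread over the bins. The 10 bins with most reads of a library held 57.6 ± 3.7% of the chromosome II and III reads in the RNase mutant, 52.1 ± 5.57% in the null and 43.0 ± 11.7% in ΔPAZ, against 43.9 ± 7.68% in wild type.

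Bins with microRNA genes led the list of most reads. In wild type the highest was chromosome II 7800001 to 7900000 (ce11), which holds mir-57, the cyclin-dependent kinase inhibitor genes cki-1 and cki-2 and the spindle positioning gene lin-5. It had 43862, 63409, 69686, 76508 and 51129 RPM in the 5 null libraries, 46478, 40678 and 30246 in the RNase mutant and 44706, 16062 and 30993 in ΔPAZ. Wild type had 52254, 65767, 29496, 25179.6 and 50391 RPM. All 3 mutants overlapped wild type, and none of the comparisons passed the test (log2 fold change 0.45 in the null, -0.19 in the RNase mutant and -0.54 in ΔPAZ). Second came chromosome III 8800001 to 8900000, which holds the integrin gene pat-2 beside the microRNA genes mir-80, mir-90 and mir-238, called the mir-80 group here. It had 93934, 114763 and 94978 RPM in the RNase mutant, 55180.3, 61059.6, 63613, 35456 and 33554 in the null and 30213, 8767 and 21224 in ΔPAZ. Wild type had 33286, 61754, 34338, 17645 and 29975 RPM. Every RNase library lay above every other library of the study. The rise in the RNase mutant had log2 fold change 1.52, SE 0.48, adjusted p = 0.0202 by edgeR's quasi-likelihood test. Here and below, adjusted p-values are Benjamini-Hochberg values over all 1006 bins. That call was lost in the 13 libraries that the design text lists (adjusted p = 0.0925) and, among single libraries, without RNase replicate 2 (adjusted p = 0.0728).

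**Figure D1:**
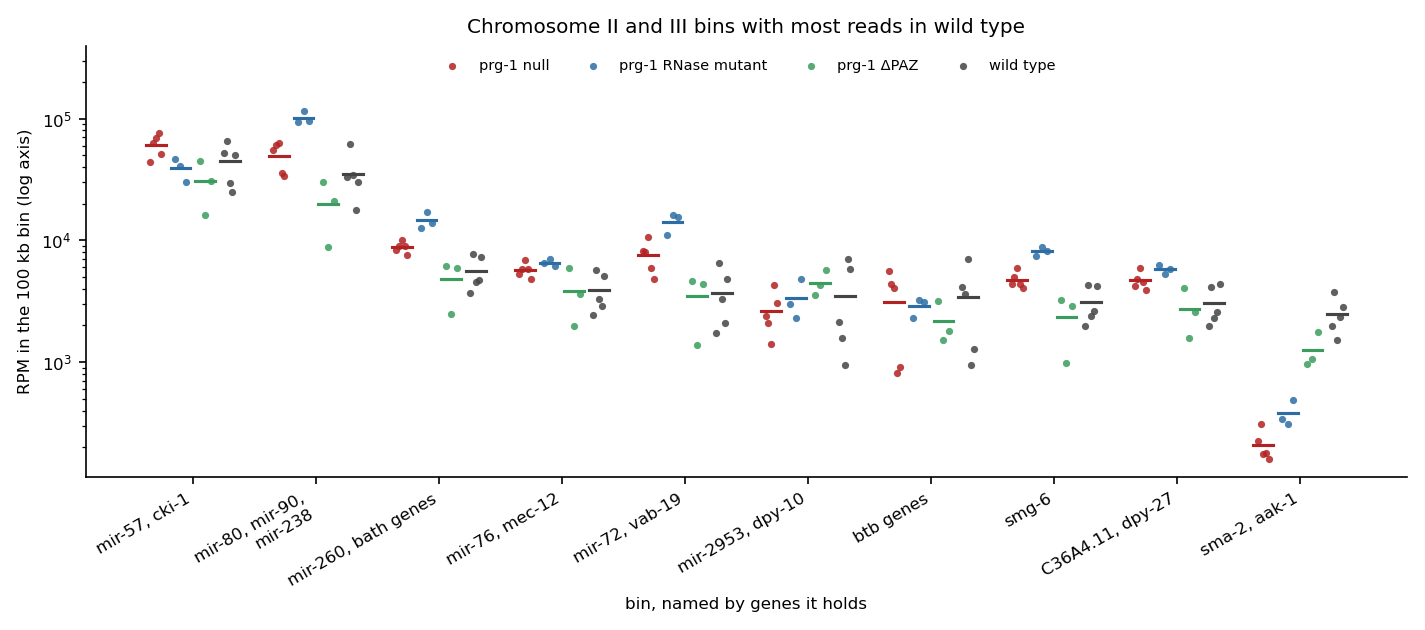
RPM (log axis) in the 10 chromosome II and III bins with the highest wild type mean, one point per library and a line at the mean, for null, RNase mutant, ΔPAZ and wild type from left to right within each bin. The bins of mir-57 and of the mir-80 group lie well above the others in wild type, and only the bin with sma-2 and aak-1 has its null and RNase libraries all below wild type.

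The other 8 bins of highest wild type level averaged between 2482 and 5602 RPM there. Chromosome II 3300001 to 3400000 contains F39E9.7, a source of the endogenous siRNAs that depend on the Argonaute ERGO-1, with mir-260 annotated inside it. Its level was 12714, 17136 and 13953 RPM in the RNase mutant, 8397, 9068, 10160.5, 9060.2 and 7568 in the null and 6157, 2488 and 5889 in ΔPAZ. Wild type had 3709, 7686, 4535, 4734 and 7348 RPM. RNase libraries lay above all wild type libraries (log2 fold change 1.38, SE 0.35, adjusted p = 0.00475), and the null libraries overlapped wild type by 1 library (log2 fold change 0.66, SE 0.31, adjusted p = 0.0999). Chromosome II 2400001 to 2500000 holds mir-72 and vab-19, a gene for an epidermal attachment protein. It had 11016, 16149.6 and 15599.7 RPM in the RNase mutant against 1731, 6481, 3289.6, 2082 and 4858 RPM in wild type, with no overlap (log2 fold change 1.95, SE 0.44, adjusted p = 0.00165). Chromosome III 2400001 to 2500000 holds smg-6, of the nonsense-mediated decay pathway, and one end of the cyclin C gene cic-1. It rose in the RNase mutant too, to a mean of 8151 ± 662 RPM against 3112 ± 1088 in wild type (SD, n = 3 and 5; log2 fold change 1.39, SE 0.36, adjusted p = 0.00481). Chromosome III 3100001 to 3200000, with mir-76 and the touch receptor tubulin gene mec-12, did not pass the test in any mutant against wild type. The bin of the BTB-domain genes btb-16 and btb-17 varied within genotypes. At chromosome II 3200001 to 3300000 it had 5554, 4374, 4035, 811 and 909 RPM in null replicates 1 to 5 and 4157, 3658, 7014, 956 and 1288 RPM in wild type replicates 1 to 5, with replicates 4 and 5 low in both. Chromosome II 6700001 to 6800000, with the cuticle collagen genes dpy-2 and dpy-10, had 2132, 1586, 955, 7086 and 5811 RPM in wild type replicates 1 to 5. Here wild type replicates 4 and 5, which go beyond the 3 wild type libraries counted in the design text, were the high ones. Null replicates 4 and 5 were also the highest of the null, with counts of 8107 and 5608 reads. Null replicates 1 to 3 had counts of 2843, 3628 and 3200 reads. These null counts are not scaled to the 1185732 to 2288967 genome-mapped reads of the null libraries. They cannot be set beside the wild type RPM. Null replicate 4 is within the libraries of the design text.

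The comparison of prg-1 null with wild type males asks which bins change when PRG-1 is absent. In the null, 127 of the 291 bins were called (43.6%), 46 higher and 81 lower. Over all 1006 bins the test called 40.3%, with 12% higher and 28.2% lower, so the share called on chromosomes II and III lay near the background. The median log2 fold change of the 291 bins was -0.24, against -0.29 over all bins, and the bins ranged from -3.57 to 3.46. Null and wild type libraries did not overlap in 41 bins that were higher and 49 that were lower, where 9.74% and 15% of all bins had no overlap in these directions. The largest rises were in the bins of ced-9, of a chemoreceptor gene cluster and of nos-1, and the largest falls in the bins of sma-2, osm-12 and pir-1.

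The largest rise stood at chromosome III 10300001 to 10400000, which holds ced-9, the Bcl-2 family protector against apoptosis, and mev-1, a subunit of succinate dehydrogenase. It had 1257, 1644, 1639.6, 2036 and 1855 RPM in the null against 146, 154, 57.3, 192 and 216 RPM in wild type. All null libraries were several times above the highest wild type library (log2 fold change 3.46, SE 0.30, adjusted p = 6.19e-09). The RNase mutant, at 199.7, 150.3 and 212 RPM, and ΔPAZ, at 58.0, 79.9 and 110.0 RPM, stayed within the wild type range. A bin in a cluster of chemoreceptor genes of the sre, srg, srh and srz families, chromosome II 12400001 to 12500000, had 380.4, 479.6, 360.0, 449 and 427 RPM in the null against 37.2, 47.8, 74.8, 64.0 and 43.7 RPM in wild type. Again no null library came near wild type (log2 fold change 2.97, SE 0.26, adjusted p = 6.73e-09). The RNase mutant had 36.8, 26.1 and 54.6 RPM and ΔPAZ 42.8, 36.2 and 60.8 RPM, both overlapping wild type. Chromosome III 11500001 to 11600000 holds spe-6, a casein kinase of the sperm lineage. It had 1016, 999, 1008, 1174 and 1059 RPM in the null, 283, 214 and 262 in the RNase mutant and 144, 253 and 299 in ΔPAZ, against 272, 342, 117, 274 and 295 RPM in wild type (log2 fold change 2.01, SE 0.26, adjusted p = 1.56e-06 for the null).

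In other bins with a large rise of the null the RNase mutant was high too. Chromosome II 10900001 to 11000000 carries nos-1, a nanos gene, the start of the receptor phosphatase gene ptp-3 and the alpha-tubulin gene tba-4. Its level was 2602, 2695, 2588, 3051 and 3230.1 RPM in the null and 3105, 2393 and 3579 RPM in the RNase mutant, against 437, 445, 317, 529.7 and 621 RPM in wild type. Both mutants lay wholly above wild type (log2 fold change 2.59, SE 0.24, adjusted p = 1.41e-08 in the null; log2 fold change 2.69, SE 0.26, adjusted p = 7.28e-08 in the RNase mutant), and ΔPAZ, at 302, 312 and 356 RPM, did not. Chromosome III 10000001 to 10100000 holds mir-1020 and hal-2, a gene of meiotic chromosome pairing. It had 3030.2, 2755, 2986, 3635 and 3597 RPM in the null, 4681, 4187 and 4432 in the RNase mutant and 421, 339 and 730.1 in ΔPAZ. Wild type had 593, 696, 400.1, 724 and 659.8 RPM. The null and the RNase mutant again did not overlap wild type (log2 fold change 2.38, SE 0.26, adjusted p = 1.9e-07 in the null; log2 fold change 2.85, SE 0.28, adjusted p = 1e-07 in the RNase mutant). Chromosome III 3400001 to 3500000 holds spe-41, the calcium channel sperm need to fertilize, and the nuclear pore gene npp-9. It averaged 2319 ± 343 RPM in the null and 1591 ± 172 RPM in the RNase mutant against 502 ± 167 RPM in wild type (SD; log2 fold change 2.21 in the null and 1.66 in the RNase mutant). The bin of the spindle checkpoint gene bub-3 and the Wnt secretion gene mig-14, chromosome II 13700001 to 13800000, had log2 fold changes of 2.05 in the null and 1.45 in the RNase mutant. At chromosome II 8200001 to 8300000, with the translation initiation gene ifg-1 and the chaperonin gene cct-4, they were 1.99 in the null and 0.66 in the RNase mutant (adjusted p = 0.0253 in the RNase mutant).

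Falls of the null were led by chromosome III 8700001 to 8800000. The bin holds sma-2, a Smad of the BMP-like body size pathway, aak-1, a catalytic subunit of AMP-activated kinase, and much of zfp-1. It had 223, 309.7, 175, 179 and 159 RPM in the null, 343, 312 and 487 in the RNase mutant and 960.1, 1067 and 1754 in ΔPAZ. Wild type had 1978, 3740.5, 1507, 2366 and 2820.0 RPM. The null and the RNase mutant lay wholly below wild type (log2 fold change -3.57, SE 0.30, adjusted p = 5.27e-09 in the null; log2 fold change -2.71, SE 0.35, adjusted p = 4.61e-06 in the RNase mutant), and ΔPAZ lay between with 1 library inside the wild type range (log2 fold change -0.98, SE 0.32, adjusted p = 0.054). The neighbouring bin, with the mir-80 group, had a null log2 fold change of 0.49 that did not pass the test. Chromosome III 12100001 to 12200000, whose right end reaches into the cilium gene osm-12, fell in all 3 mutants. Its levels were 81.0, 63.8, 46.7, 61.3 and 59.8 RPM in the null, 125, 126 and 93.9 in the RNase mutant and 166, 239.6 and 214 in ΔPAZ, against 482, 731, 291, 931 and 937 RPM in wild type, so that all 11 mutant libraries lay below all 5 wild type libraries. The log2 fold changes were -3.43 (SE 0.29) in the null, -2.55 (SE 0.34) in the RNase mutant and -1.70 (SE 0.33) in ΔPAZ, with adjusted p-values of 5.72e-09 in the null, 6.74e-06 in the RNase mutant and 0.0113 in ΔPAZ. The ΔPAZ call was lost without ΔPAZ replicate 1 (adjusted p = 0.067) and with only ΔPAZ and wild type in the fit (adjusted p = 0.0595).

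Chromosome II 9100001 to 9200000 contains pir-1, an RNA phosphatase that works with Dicer, the E2F partner gene dpl-1 and the start of let-23, the EGF receptor gene. It had 129, 155, 116, 186 and 163 RPM in the null, 222, 166 and 163 in the RNase mutant and 413, 429.5 and 1043 in ΔPAZ. Wild type had 944, 1719.7, 859.5, 1016 and 1406 RPM. Null and RNase libraries did not reach the wild type range (log2 fold change -2.99, SE 0.29, adjusted p = 3.23e-08 in the null; log2 fold change -2.69, SE 0.35, adjusted p = 3.81e-06 in the RNase mutant), and 1 ΔPAZ library did. Chromosome II 14100001 to 14200000 holds xrn-2, a 5′ to 3′ exoribonuclease that degrades microRNAs, and eat-2, an acetylcholine receptor subunit of the pharynx. It had 259, 338, 224, 414 and 331 RPM in the null and 202, 216 and 251 RPM in the RNase mutant, against 1437, 1885, 825, 2214 and 2399 RPM in wild type (log2 fold change -2.48, SE 0.28, adjusted p = 3.29e-07 in the null; log2 fold change -2.97, SE 0.35, adjusted p = 1.42e-06 in the RNase mutant). Chromosome II 12700001 to 12800000 holds the spliceosome helicase gene snrp-200 and the RNA-binding gene tiar-2. It averaged 285 ± 48.2 RPM in the null and 328 ± 92.4 RPM in the RNase mutant against 1601 ± 636 RPM in wild type (SD; log2 fold change -2.49 in the null and -2.29 in the RNase mutant). One large fall was called in the null and not in the RNase mutant. At chromosome II 12100001 to 12200000, with rol-1 and set-24, the values were 91.1, 74.2, 38.9, 86.7 and 58.2 RPM in the null against 334, 581, 192, 469.6 and 479 RPM in wild type (log2 fold change -2.56, SE 0.31, adjusted p = 6.93e-07). The RNase mutant had 364, 312 and 299.7 RPM, within the wild type range (log2 fold change -0.34, SE 0.33, adjusted p = 0.468). The direct comparison of RNase mutant with null passed there (log2 fold change 2.22, SE 0.33, adjusted p = 2.39e-05). The other named falls were chromosome II 13300001 to 13400000, with mir-2215 and mac-1 (-2.37), and chromosome III 1800001 to 1900000, with the calpain gene clp-4 (-2.36).

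**Figure D2:**
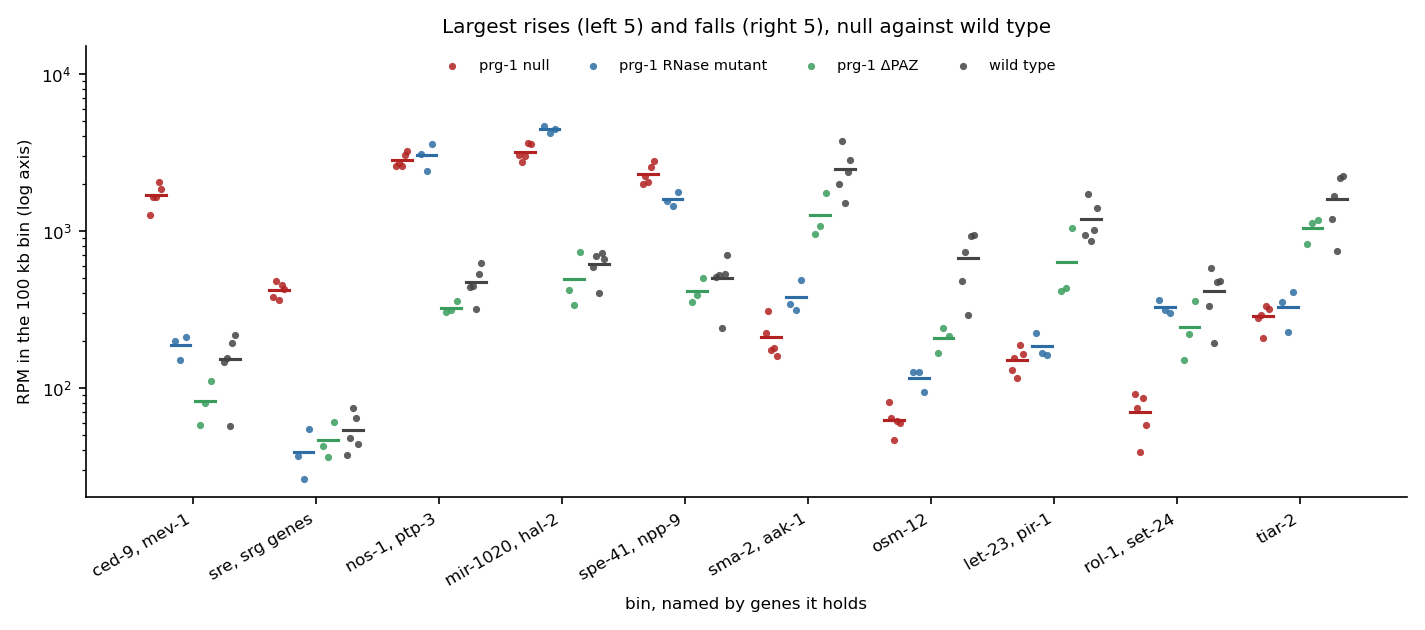
RPM (log axis) in the 5 bins that rose most (left) and the 5 that fell most (right) in the null among chromosome II and III bins with no overlap to wild type, one point per library and a line at the mean, in the order null, RNase mutant, ΔPAZ and wild type. The bins with ced-9 and with the sre and srg genes are high in the null alone, and the bins with nos-1 and hal-2 are high in null and RNase mutant.

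All 8 named rises and all 8 named falls of the null were called under every alternative run. They had been chosen as the largest called changes without overlap in these same libraries, so this was no independent check. The split between higher and lower depended on the scaling: with TMM factors, which moved the median of all bins from -0.29 to 0.02, 85 bins were higher and 63 lower, and with DESeq2 size factors 77 and 70.

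The comparison of the RNase mutant with wild type asks what a PRG-1 protein mutated in its RNase activity changes. In the RNase mutant, 101 of the 291 bins were called (34.7%), 41 higher and 60 lower, where 31% of all 1006 bins were called, 14.4% higher and 16.6% lower. The 291 bins had a median log2 fold change of -0.12, as had all bins. Without overlap to wild type, 50 bins were higher and 55 lower, against 16.6% and 15.5% of all bins. The largest rises were in the bins of apb-1, of the 3′ end of daf-2 and of hal-2, and the largest falls in the bins of cog-1, xrn-2 and sma-2. These calls use the same 5 wild type libraries as those of the null and of ΔPAZ.

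The largest rise of the RNase mutant lay at chromosome III 2500001 to 2600000, with the clathrin adaptor gene apb-1, the amyloid precursor adaptor gene feh-1 and rbc-2. It had 1592, 1410.3 and 1667 RPM in the RNase mutant, 85.2, 138, 67.3, 90.9 and 82.1 in the null and 229, 119 and 124 in ΔPAZ. Wild type had 112, 90.9, 65.1, 110.0 and 102 RPM. The 3 RNase libraries stood alone, far above every other library. The rise had log2 fold change 4.02, SE 0.27, adjusted p = 8.87e-10, against a null value of -0.05. ΔPAZ lay just above wild type with no overlap and did not pass the test (log2 fold change 0.69, SE 0.28, adjusted p = 0.0835). Chromosome III 3300001 to 3400000 holds the myosin light chain gene mlc-4. It had 513, 506 and 551 RPM in the RNase mutant, 82.6, 104, 62.5, 109 and 79.4 in the null and 45.4, 95.0 and 80.7 in ΔPAZ. Wild type had 116, 103, 59.2, 137 and 87.5 RPM. Here too the RNase libraries alone were high (log2 fold change 2.38, SE 0.28, adjusted p = 1.11e-06). Chromosome III 1000001 to 1100000 carries par-2, a polarity gene of the embryo, and the splicing factor gene uaf-1. It was likewise high in the RNase mutant, at 1077, 908 and 803 RPM, against 271, 292, 194, 182 and 288 RPM in wild type (log2 fold change 1.92, SE 0.22, adjusted p = 6.88e-07), with the null at 309.5, 313, 344, 323 and 253 RPM and 4 of its 5 libraries above wild type (log2 fold change 0.33, SE 0.19, adjusted p = 0.188).

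Some rises were graded, with the RNase mutant highest and the null between. Chromosome III 2900001 to 3000000 ends within the 3′ part of daf-2, the insulin and IGF receptor gene. It had 1471, 2159 and 2597 RPM in the RNase mutant, 796, 919, 936, 1216 and 1079.8 in the null and 227, 282 and 346 in ΔPAZ. Wild type had 185, 282, 170.0, 417 and 349 RPM. Neither the RNase mutant nor the null overlapped wild type (log2 fold change 2.89, SE 0.29, adjusted p = 1.4e-07 in the RNase mutant; log2 fold change 1.82, SE 0.26, adjusted p = 8.53e-06 in the null). The next bin to the right, chromosome III 3000001 to 3100000, holds the rest of daf-2. It was lower in the RNase mutant, at 828, 955 and 709 RPM against 3048, 1651, 1256, 2727 and 1918 RPM in wild type (log2 fold change -1.35, SE 0.41, adjusted p = 0.0157). That call was lost without RNase replicate 1 (adjusted p = 0.055) or replicate 3 (adjusted p = 0.0736). Chromosome III 9400001 to 9500000 holds baf-1, whose product bridges chromatin and the nuclear envelope, the centromeric histone variant gene cpar-1 and the anaphase-promoting complex gene emb-30. It had 3229.8, 2396 and 2899 RPM in the RNase mutant and 1106, 996, 1020.1, 1237 and 861 RPM in the null, against 327, 442, 373, 518 and 553 RPM in wild type, again without overlap (log2 fold change 2.68, SE 0.24, adjusted p = 4.08e-08 in the RNase mutant; log2 fold change 1.24, SE 0.22, adjusted p = 8.04e-05 in the null).

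Among the falls, chromosome II 14900001 to 15000000 came first. It holds mir-273, the homeobox gene cog-1, which specifies a taste neuron, and the phosphodiesterase gene pde-3. It had 153, 85.7 and 132 RPM in the RNase mutant, 256, 232, 190.0, 292 and 257 in the null and 398, 757 and 679 in ΔPAZ. Wild type had 765, 1369, 482, 1529 and 1694 RPM. Null and RNase libraries all lay below wild type (log2 fold change -3.24, SE 0.39, adjusted p = 1.72e-06 in the RNase mutant; log2 fold change -2.25, SE 0.30, adjusted p = 3.45e-06 in the null). Chromosome II 10300001 to 10400000 holds gcy-4 and gcy-5, receptor guanylyl cyclase genes of the taste neurons. It had 194, 189 and 227 RPM in the RNase mutant and 389.6, 497, 418, 1125 and 1099 RPM in the null, against 1031, 1308, 456, 1534 and 960.1 RPM in wild type. Only the RNase libraries lay wholly below wild type (log2 fold change -2.38, SE 0.43, adjusted p = 0.000211), and null replicates 2, 4 and 5 were within the wild type range. Chromosome II 5600001 to 5700000 holds the centriole duplication kinase gene zyg-1 with the collagen gene bli-2 inside it. Both mutants were low there, at 367, 315 and 371 RPM in the RNase mutant and 319, 271, 259.9, 349 and 284 RPM in the null, against 984, 1747, 923, 1862 and 2002 RPM in wild type (log2 fold change -2.10, SE 0.31, adjusted p = 2.12e-05 in the RNase mutant; log2 fold change -2.34, SE 0.25, adjusted p = 1.95e-07 in the null).

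**Figure D3:**
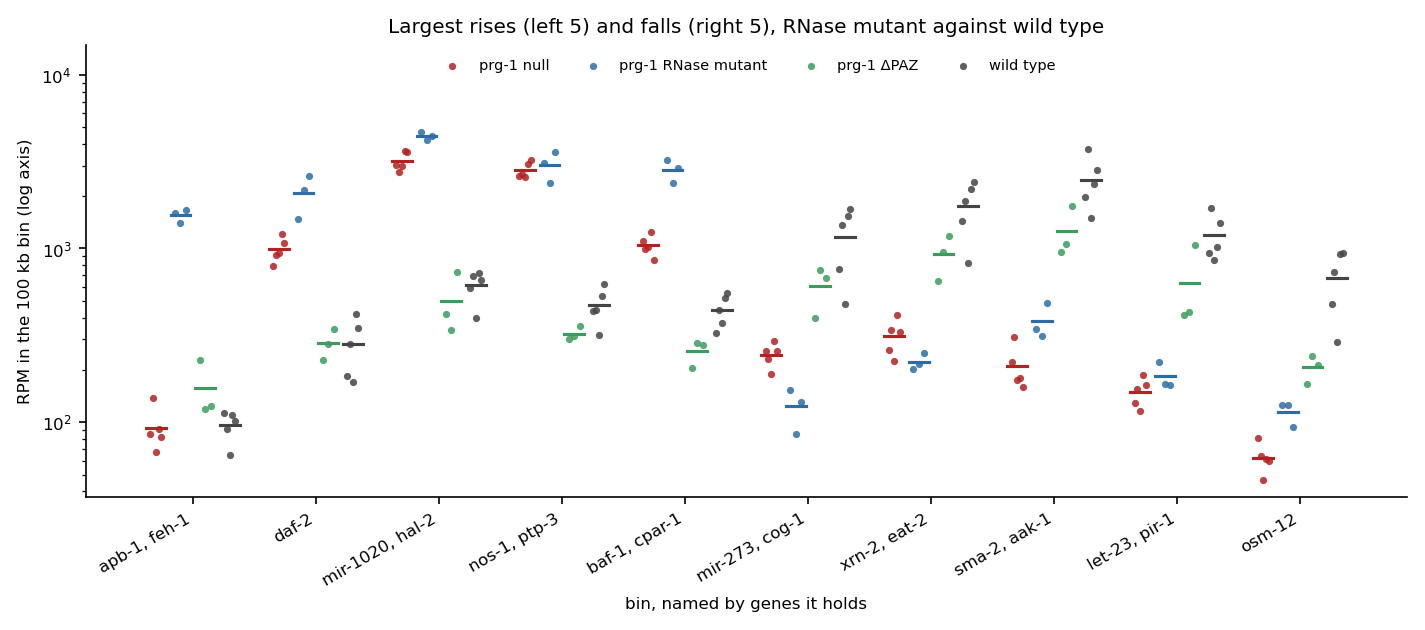
RPM (log axis) in the 5 bins that rose most (left) and the 5 that fell most (right) in the RNase mutant among chromosome II and III bins with no overlap to wild type, one point per library and a line at the mean, in the order null, RNase mutant, ΔPAZ and wild type. The bin with apb-1 and feh-1 is high in the RNase mutant alone, and in the 5 falling bins null and RNase mutant are both low.

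All 8 named rises and all 8 named falls of the RNase mutant were called under every alternative run. These too had been chosen as the largest called changes without overlap in the same libraries, so this was no independent check. With TMM factors 66 bins were higher and 65 lower.

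The comparison of ΔPAZ with wild type asks what loss of the PAZ domain, which anchors the 3′ ends of guide RNAs, changes. Of the 291 bins, 40 were called (13.7%) and all 40 were lower, against 10.3% of all 1006 bins called, 0.994% higher and 9.34% lower. Log2 fold changes ran from -1.70 to 0.69, with a median of -0.52, against -0.43 over all bins. ΔPAZ and wild type libraries did not overlap in 3 bins that were higher and 25 that were lower, against 1.79% and 9.05% of all bins. No bin was called higher by edgeR, where 3 were higher at an unadjusted p under 0.05 and the DESeq2 Wald test called 7 higher. After the bin of osm-12, already given, the largest fall without overlap was at chromosome II 1400001 to 1500000, with the nucleolar gene nol-6. It had 78.1, 95.0 and 191 RPM in ΔPAZ against 356, 237, 444, 225 and 262 RPM in wild type, with all ΔPAZ libraries below wild type (log2 fold change -1.31, SE 0.31, adjusted p = 0.0207). Chromosome II 4600001 to 4700000, with the cohesin gene scc-1 at its right end and hmg-11, had 338, 307 and 398 RPM in ΔPAZ against 787, 797, 438, 898 and 906 RPM in wild type (log2 fold change -1.14, SE 0.26, adjusted p = 0.0207); wild type replicate 3 was the lowest of the wild type libraries. Chromosome II 4200001 to 4300000, with the G protein gene gpa-11, had 721, 604 and 725 RPM in ΔPAZ, 593, 456 and 672 in the RNase mutant and 325, 367, 259.9, 316 and 284 in the null, against 999, 1105, 1707, 1512 and 1506 RPM in wild type. All 11 mutant libraries lay below wild type there, and the null was lowest (log2 fold change -1.0 in ΔPAZ, -1.25 in the RNase mutant and -2.14 in the null).

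Further called falls of ΔPAZ without overlap were smaller. They included the bins of rde-4, the double-stranded RNA partner of Dicer (chromosome III 10200001 to 10300000, -1.06), and of a cluster of F-box genes of the fbxa family (chromosome III 1200001 to 1300000, -1.0). The others named were the bins of the p21-activated kinase gene max-2 and the PUF gene puf-6 (chromosome II 13000001 to 13100000, -0.98), and of cdk-1, the mitotic kinase gene, and the histone acetyltransferase gene cbp-1 (chromosome III 9700001 to 9800000, -0.95). The count of called bins rested on single libraries. It was 0 without ΔPAZ replicate 1, 1 without ΔPAZ replicate 2 and 77 without ΔPAZ replicate 3. It was 135 without wild type replicate 3, and 11, 16 and 12 without wild type replicates 2, 4 and 5. With TMM factors, which moved the median of all bins from -0.43 to -0.03, 7 bins were higher and 7 lower, with DESeq2 size factors 7 and 8, and no named fall of ΔPAZ kept its call under every alternative. The 3 bins with most reads in the genome took 31.1 ± 6.39% of ΔPAZ reads, against 22.3 ± 9.37% in wild type (mean ± SD). With library sizes that leave them out, 3 bins were higher and 31 lower in ΔPAZ. The median log2 fold change of the 291 bins was then -0.35.

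**Figure D4:**
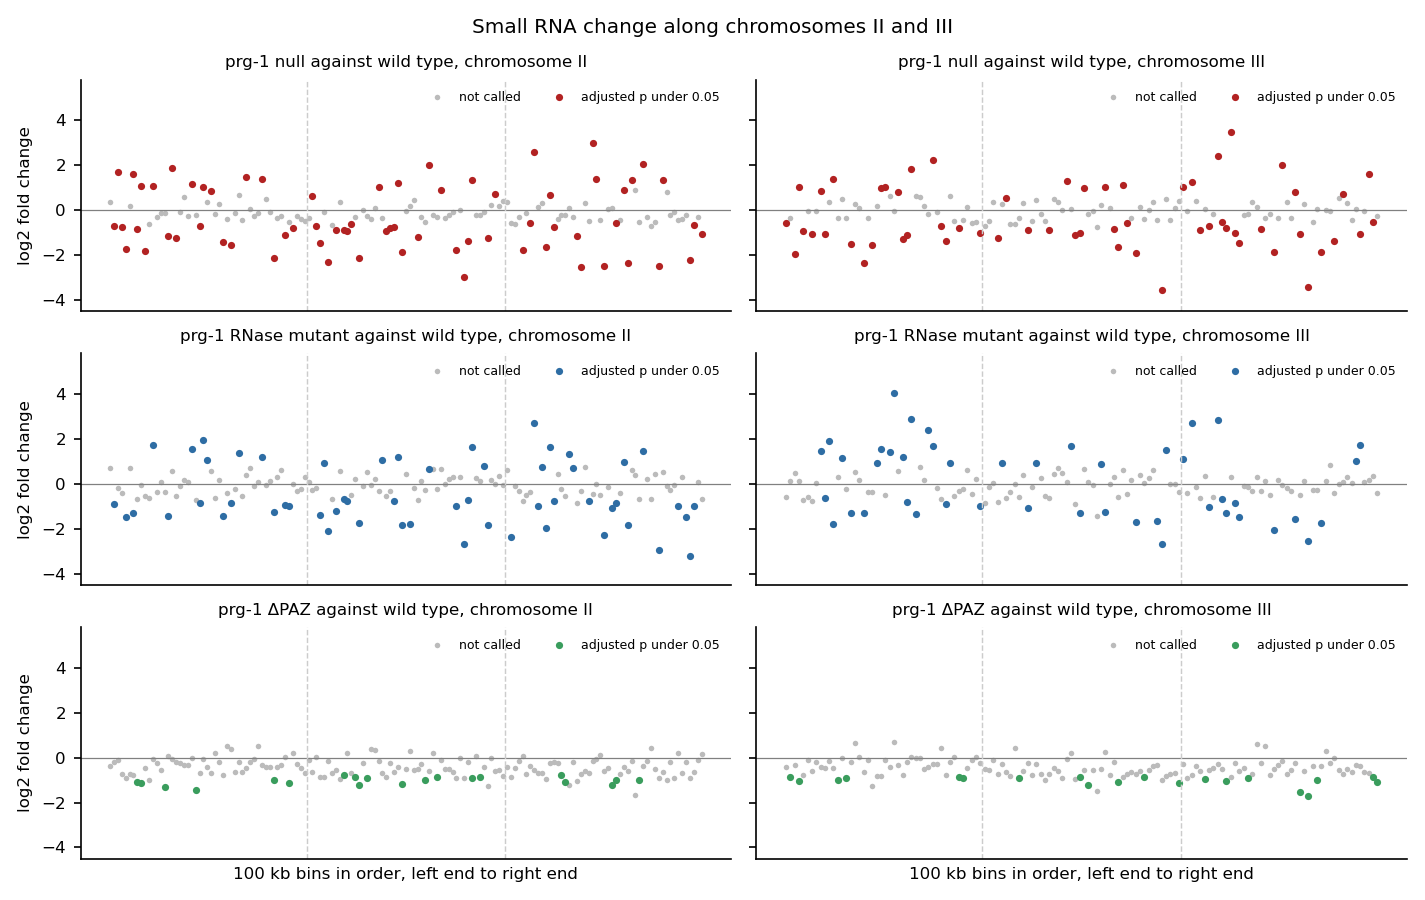
Log2 fold change of each mutant against wild type in the 153 bins of chromosome II (left) and the 138 bins of chromosome III (right), in order along the chromosome, with bins at an adjusted p under 0.05 in colour, the others grey and dashed lines between the left, centre and right segments. Called bins of both directions are scattered over all segments in null and RNase mutant, and in ΔPAZ all called bins are below 0.

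Called bins were spread along both chromosomes. Each chromosome was cut into 3 segments of equal numbers of bins. The null had between 5 and 10 bins higher and between 10 and 17 lower in each segment. The most lower bins were in the centre of chromosome II (17 of 51). Over all 1006 bins, 12% were higher and 28.2% lower in the null. The left segment of chromosome III had the most rises of the RNase mutant, 12 of 46, and a median log2 fold change of 0.07. Over all bins 14.4% were higher in the RNase mutant, and the median was -0.12. Stretches of neighbouring bins called in the same direction were short: 3 bins at most against wild type, at chromosome II 6000001 to 6300000 and 7100001 to 7400000 in the null and at 14800001 to 15100000 in the RNase mutant, all lower. The left segment of chromosome II held 5.77 ± 0.367% of all reads in the RNase mutant against 3.77 ± 0.564% in wild type, and the left segment of chromosome III 4.88 ± 0.095% in the RNase mutant against 3.10 ± 0.691% in wild type. In both the RNase libraries lay above all wild type libraries. The left segment of chromosome II includes the bins of mir-72 and F39E9.7, and that of chromosome III the bin of smg-6. In each of these bins the RNase libraries also lay above all wild type libraries. The shares without these bins were not computed, so a rise over the other bins of either segment is not shown. In the centre of chromosome III the share was 12.1 ± 1.05% in the RNase mutant against 5.87 ± 1.74% in wild type, and without the bin of the mir-80 group it was 1.96 ± 0.160% in the RNase mutant against 2.33 ± 0.553% in wild type, with the groups overlapping.

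Direct comparison of the RNase mutant with the null, which uses no wild type level, called 62 of the 291 bins, 33 higher and 29 lower, where 21.2% of all 1006 bins were called, 13.5% higher and 7.65% lower. On chromosomes II and III the share was 21.3%. Chromosome III 2500001 to 2600000 with apb-1 (log2 fold change 4.07, SE 0.27, adjusted p = 3.24e-10) and chromosome III 3300001 to 3400000 with mlc-4 (2.58) were higher in the RNase mutant. Chromosome II 12400001 to 12500000 with chemoreceptor genes (log2 fold change -3.43, SE 0.33, adjusted p = 5.39e-08) and chromosome III 10300001 to 10400000 with ced-9 (-3.17) were lower. At chromosome III 200001 to 300000, with the kinesin gene klp-20, the RNase mutant had 749, 691 and 917 RPM against 159, 191, 115, 149.6 and 106 RPM in the null. No library overlapped, and wild type, at 411, 704, 448, 644 and 604 RPM, overlapped the RNase mutant (log2 fold change 2.44, SE 0.24, adjusted p = 8.54e-08).

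Against wild type, 6 bins were called in opposite directions in the null and the RNase mutant, and all 6 were also called between these mutants. That the null and the RNase mutant lay on either side of wild type follows from this choice. The same count over all 1006 bins was not made, so a share to set beside it is lacking. Chromosome III 13300001 to 13400000 holds ife-1, a germline cap-binding protein gene needed for sperm formation, and the chromokinesin gene klp-19. It had 1829, 1778 and 1649.7 RPM in the RNase mutant and 223, 274, 173, 309 and 272 RPM in the null, against 384, 679, 296, 624 and 651 RPM in wild type. The RNase libraries were all above wild type (log2 fold change 1.73, SE 0.29, adjusted p = 8.96e-05), and the null libraries were low with 1 inside the wild type range (log2 fold change -1.07, SE 0.26, adjusted p = 0.00221). Chromosome III 2700001 to 2800000 holds cosa-1, a gene of meiotic crossovers, and laf-1, a helicase of germ granules. It had 646, 451 and 626 RPM in the RNase mutant and 64.1, 157, 106, 107 and 72.3 RPM in the null, against 192, 252, 221, 311 and 269 RPM in wild type. Both mutants were free of overlap with wild type, in opposite directions (log2 fold change 1.21, SE 0.31, adjusted p = 0.00488 in the RNase mutant; log2 fold change -1.29, SE 0.28, adjusted p = 0.000873 in the null).

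In the other 4 bins the null was called higher and the RNase mutant lower. Chromosome III 1100001 to 1200000 holds the formin gene exc-6 and the dauer regulator gene eak-3. It had 132, 127 and 123 RPM in the RNase mutant and 841, 1033, 1194, 1354 and 1264 RPM in the null, against 343, 497, 264, 549 and 559.7 RPM in wild type. Both mutants lay outside the wild type range (log2 fold change -1.80, SE 0.29, adjusted p = 5.46e-05 in the RNase mutant; log2 fold change 1.36, SE 0.23, adjusted p = 6.45e-05 in the null). Chromosome II 600001 to 700000, with the C-type lectin gene clec-118, had 59.8, 74.8 and 46.5 RPM in the RNase mutant and 479, 422, 445, 392 and 493 RPM in the null, against 119, 208, 87.4, 109 and 213 RPM in wild type, also without overlap (log2 fold change -1.29, SE 0.31, adjusted p = 0.00256 in the RNase mutant; log2 fold change 1.60, SE 0.25, adjusted p = 2.53e-05 in the null). Chromosome III 11800001 to 11900000 holds mir-1832a and ntl-3 of the deadenylase complex. It had 270.1, 168 and 260.3 RPM in the RNase mutant and 1176, 1001, 1013, 1331 and 1333 RPM in the null, against 561, 979, 485, 498 and 898 RPM in wild type (log2 fold change -1.56, SE 0.30, adjusted p = 0.000348 in the RNase mutant; log2 fold change 0.77, SE 0.24, adjusted p = 0.0136 in the null). Neither mutant overlapped wild type there, and the null call was lost in the 13 libraries of the design text (adjusted p = 0.057). Chromosome III 7400001 to 7500000 holds cgh-1, a germline helicase that protects stored mRNA, and the fumarase gene fum-1. It had 211, 140.1 and 208 RPM in the RNase mutant and 762, 888, 854, 1045 and 980.3 RPM in the null, against 211, 312, 129, 947 and 619 RPM in wild type, with overlap in both comparisons. Its RNase call held in 9 of 18 alternatives and its null call in 16 of 20, and this bin was chosen after its values were seen. The RNase call was lost in the 13 libraries of the design text, with the replicate block and with library sets as a block. It was also lost with only these 2 genotypes in the fit, without any 1 RNase library and without wild type replicate 4 or 5. Adjusted p-values reached 0.628. Wild type replicates 1 to 3 overlapped the RNase libraries, and replicates 4 and 5 lay above them.

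**Figure D5:**
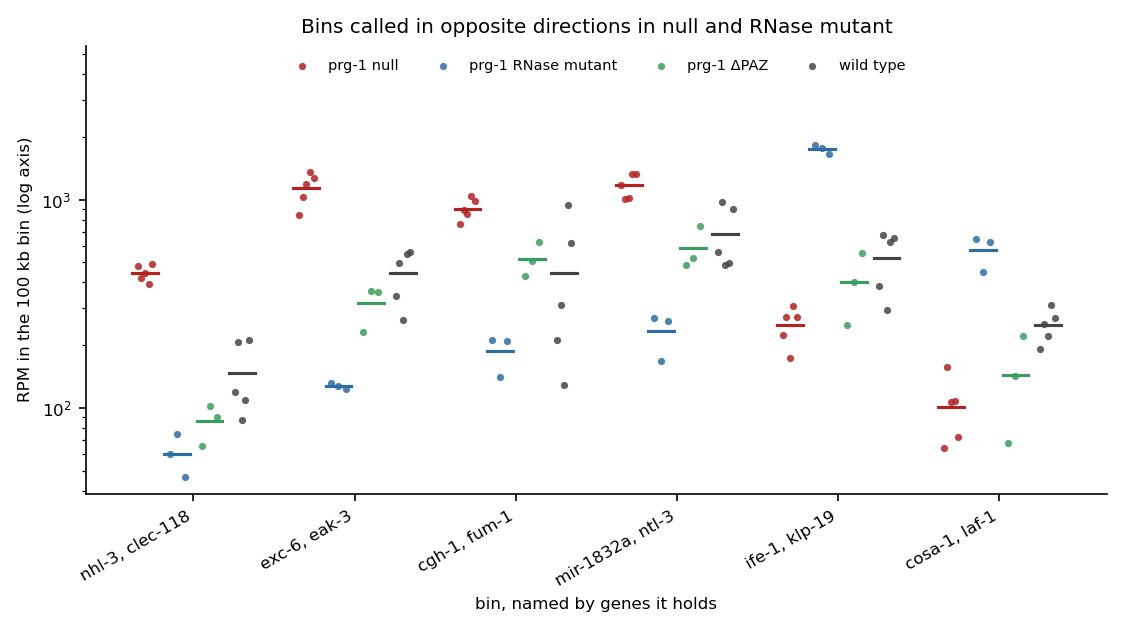
RPM (log axis) in the 6 chromosome II and III bins called in opposite directions in the null and the RNase mutant, one point per library and a line at the mean, in the order null, RNase mutant, ΔPAZ and wild type. In the left 4 bins the null is above and the RNase mutant below the wild type mean, and in the right 2 bins the reverse.

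With TMM factors RNase mutant against null gave 33 bins higher and 48 lower, and with DESeq2 size factors 34 and 45. ΔPAZ against the null called 129 bins (44.3%), 44 higher and 85 lower, where 39.7% of all bins were called, 17.5% higher and 22.2% lower. With library sizes that leave out the 3 bins with most reads of the genome, 64 were higher and 77 lower. The RNase mutant against ΔPAZ called 114 bins (39.2%), 86 higher and 28 lower, where 34.3% of all bins were called, 24.9% higher and 9.44% lower, and with TMM factors it gave 76 higher and 54 lower. With DESeq2 size factors these counts were 72 and 56, and without the 3 bins with most reads in the library sizes 79 and 47. Both comparisons use the same 3 ΔPAZ libraries. The longest stretch of neighbouring bins called alike was in ΔPAZ against the null, 5 bins at chromosome III 9100001 to 9600000 with a median log2 fold change of -1.30, all lower. ΔPAZ against the null was also lower in 4 bins at chromosome III 6200001 to 6600000 and in 4 at 2100001 to 2500000.

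Bins were also grouped by annotated genes. Of the sources of siRNAs that depend on ERGO-1, 5 genes lie in 4 of the 291 bins, and these bins had median log2 fold changes of 1.15 in the RNase mutant, 0.90 in the null and -0.17 in ΔPAZ, against -0.12, -0.29 and -0.43 over all bins. In the RNase mutant 3 of the 4 were called higher, in the null 2 of 4, and none was called lower, where 14.4% of all bins were higher in the RNase mutant and 12% in the null. With TMM factors or the DESeq2 Wald test, all 4 were called higher in the null. The bin of E01G4.5 and E01G4.7, chromosome II 13400001 to 13500000, had 2214, 2349, 2453, 2783 and 2324 RPM in the null, 1573, 1585 and 1193 in the RNase mutant and 1149, 347 and 1069 in ΔPAZ. Wild type had 483, 1211, 628, 911 and 1575 RPM. Null libraries lay wholly above wild type (log2 fold change 1.33, SE 0.32, adjusted p = 0.00209), and RNase libraries overlapped the top of its range (log2 fold change 0.59, SE 0.36, adjusted p = 0.219). The bin of C40A11.10, annotated at the same place as mir-8199 (chromosome II 2100001 to 2200000), had 3488, 2499 and 3313 RPM in the RNase mutant and 2452, 2108, 2255, 2219 and 2801 RPM in the null, against 803, 1127, 971, 1053 and 1424 RPM in wild type. Both mutants lay above wild type without overlap (log2 fold change 1.53, SE 0.25, adjusted p = 7.43e-05 in the RNase mutant; log2 fold change 1.14, SE 0.23, adjusted p = 0.000325 in the null), and ΔPAZ, at 905, 1004 and 1261 RPM, did not. At chromosome III 3800001 to 3900000, with C36A4.11 and the dosage compensation gene dpy-27, the RNase mutant had 6251, 5306 and 5829 RPM against 1970.3, 4119, 2313, 2578 and 4401 RPM in wild type. The groups did not overlap and the rise was called (log2 fold change 0.91, SE 0.34, adjusted p = 0.0421). The call was lost without any 1 of the RNase libraries or without wild type replicate 1, 3 or 4, with adjusted p-values up to 0.122, with library sets as a block (adjusted p = 0.0523), and with only the RNase mutant and wild type in the fit (adjusted p = 0.0709). In ΔPAZ no bin of the group passed the test by edgeR, at an unadjusted p under 0.05 or by the DESeq2 Wald test. The ΔPAZ median changed sign with TMM factors (0.29).

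MicroRNA genes, 76 of them, lie in 51 of the bins. In the null 9 of these bins were higher and 10 lower (median log2 fold change -0.22), in the RNase mutant 8 and 8 (-0.10), and in ΔPAZ 0 and 8 (-0.67). As shares of the 51 bins, 17.6% were higher and 19.6% lower in the null, 15.7% in each direction in the RNase mutant, and 15.7% lower in ΔPAZ. Over all 1006 bins, 12% were higher and 28.2% lower in the null, 14.4% and 16.6% in the RNase mutant, and 9.34% lower in ΔPAZ. With TMM factors the null had 15 microRNA bins higher and 8 lower and the RNase mutant 13 and 10. The 8 lower in ΔPAZ became 1 with TMM factors, and 0 without ΔPAZ replicate 1 or with only ΔPAZ and wild type in the fit. No microRNA bin was higher in ΔPAZ at an unadjusted p under 0.05, and none was called higher by the DESeq2 Wald test. The bin of lin-4, the developmental timing microRNA (chromosome II 5900001 to 6000000), and the bin of the mir-35 to mir-41 cluster, microRNAs of the germline and early embryo (chromosome II 11500001 to 11600000), were not called in any mutant against wild type. The lin-4 bin averaged 762 ± 298 RPM in the null, 899 ± 160.1 in the RNase mutant and 315 ± 171 in ΔPAZ, against 603 ± 215 RPM in wild type. The mir-35 bin averaged 445 ± 101 RPM in the null, 794 ± 199 in the RNase mutant and 500.3 ± 123 in ΔPAZ, against 583 ± 70.1 RPM in wild type (SD). Chromosome II 11800001 to 11900000, with mir-42 to mir-45 and chosen after its values were seen, had 3640.3, 4030.0 and 2742 RPM in the RNase mutant against 1241, 2488, 1058, 772 and 1423 RPM in wild type, with no overlap (log2 fold change 1.31, SE 0.39, adjusted p = 0.0137).

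Small RNA pathway genes of the list lie in 7 bins, 1 in each: alg-2, an Argonaute of microRNAs, hrde-1, the nuclear Argonaute of the germline, dcr-1, the Dicer gene, rde-4, mut-7, henn-1 and pid-1. The bin of alg-2 (chromosome II 800001 to 900000) rose in the null, with 1333, 1699.9, 1818, 1985 and 2744 RPM against 809, 1319, 504, 901 and 1095 RPM in wild type and no library of the null below the highest of wild type (log2 fold change 1.05, SE 0.27, adjusted p = 0.00387). It was lower in ΔPAZ, at 295, 411 and 537 RPM (log2 fold change -1.15, SE 0.33, adjusted p = 0.0364), with 1 library reaching the wild type range. The bin of rde-4 was lower in the RNase mutant, at 201, 205 and 267 RPM, against 376, 414, 1173, 485 and 348 RPM in wild type, without overlap (log2 fold change -1.32, SE 0.34, adjusted p = 0.00493). It was also called lower in the null (log2 fold change -0.80, SE 0.28, adjusted p = 0.0266), where the call was lost without wild type replicate 3, the highest library (log2 fold change -0.34, adjusted p = 0.14), and without null replicate 3 (adjusted p = 0.0636). It was also lost with TMM factors (adjusted p = 0.152), DESeq2 size factors (adjusted p = 0.104) and the DESeq2 Wald test (adjusted p = 0.0864). Among the 7 bins, 1 was higher and 1 lower in the null, 0 higher and 1 lower in the RNase mutant, and 0 higher and 3 lower in ΔPAZ. Over all bins the shares lower were 28.2% in the null, 16.6% in the RNase mutant and 9.34% in ΔPAZ, and 12% were higher in the null. The 3 lower in ΔPAZ became 0 with TMM factors, with only ΔPAZ and wild type in the fit, and without ΔPAZ replicate 1. With TMM factors 2 were higher and 0 lower in the null. At an unadjusted p under 0.05 none of the 7 was higher in either of the last 2 mutants, and the DESeq2 Wald test called 1 higher in the RNase mutant and 0 in ΔPAZ.

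Genes of the major sperm proteins, 13 in 7 bins of chromosome II, encode the main protein of sperm. Their bins hold other genes too, so their reads do not check the label of the samples as males. In the null 1 of the 7 bins was higher and 2 lower, in the RNase mutant 0 and 1, and in ΔPAZ 0 and 0. Over all 1006 bins, 12% were higher and 28.2% lower in the null. The shares were 14.4% and 16.6% in the RNase mutant and 0.994% and 9.34% in ΔPAZ. The unadjusted test at p under 0.05 gave none higher in the RNase mutant or ΔPAZ and 1 lower in each, and the DESeq2 Wald test called 1 lower in the RNase mutant and none in ΔPAZ. The bin of msp-64 (chromosome II 5800001 to 5900000) was the one called lower in the RNase mutant, at 612, 611 and 642 RPM against 2358, 1461, 1923, 861 and 616 RPM in wild type, values that overlap, with a call lost without any 1 of the RNase libraries (adjusted p = 0.0673 to 0.0791) or without wild type replicate 1 (adjusted p = 0.0645), or with TMM factors (adjusted p = 0.06). Histone genes, 17 in 4 bins, gave 0 bins higher and 1 lower in the null, 0 and 0 in the RNase mutant, and 0 and 2 in ΔPAZ. These 2 became 0 with TMM factors, with only ΔPAZ and wild type in the fit, and without ΔPAZ replicate 1. For the RNase mutant, no histone bin passed at an unadjusted p under 0.05 or by the DESeq2 Wald test. None was higher in the null or in ΔPAZ at an unadjusted p under 0.05 or by the DESeq2 Wald test. This rested on 1 wild type library in the bin with 13 of the histone genes (chromosome II 13800001 to 13900000). There wild type replicate 5 had 8195 RPM, against 610 to 792 RPM in the other wild type libraries. Without that library, and in the 13 libraries of the design text, this bin was called higher in the null. The bin of his-69 and his-70 was the one called in the null (chromosome III 4000001 to 4100000, log2 fold change -0.81, SE 0.21, adjusted p = 0.00358), and in ΔPAZ it was joined by the bin of his-72, a variant of histone H3 (chromosome III 12300001 to 12400000, log2 fold change -1.0, SE 0.30, adjusted p = 0.0402).

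The remaining groups were larger. The 72 bins with transfer RNA genes had 10 higher and 16 lower in the null and 10 and 15 in the RNase mutant. For the 107 bins with snoRNA or snRNA genes the counts were 15 and 28 in the null and 18 and 22 in the RNase mutant, and for the 125 bins with 21U-RNA genes 18 and 35 in the null and 20 and 26 in the RNase mutant. The shares of these groups in the null were 13.9%, 14% and 14.4% higher and 22.2%, 26.2% and 28% lower, against 12% and 28.2% of all bins. In the RNase mutant they were 13.9%, 16.8% and 16% higher and 20.8%, 20.6% and 20.8% lower, against 14.4% and 16.6%. With TMM factors the null had 16 higher and 13 lower for transfer RNA genes, 28 and 20 for snoRNA or snRNA genes and 36 and 29 for 21U-RNA genes, so that more bins were higher than lower. In ΔPAZ 7 of the 72, 10 of the 107 and 21 of the 125 bins were lower and none was higher. Over all bins 9.34% were lower and 0.994% higher in ΔPAZ. In these groups 0, 0 and 6 bins were lower with TMM factors, and none was lower without ΔPAZ replicate 1 or with only ΔPAZ and wild type in the fit. At an unadjusted p under 0.05, 2, 1 and 0 of them were higher in ΔPAZ, and the DESeq2 Wald test called 4, 3 and 2 higher. Their medians in the null were -0.35, -0.32 and -0.24, against -0.29 over all bins, and with TMM factors they were -0.02, 0.0031 and 0.06. No listed gene lies in 58 of the 291 bins, and of these 11 were higher and 22 lower in the null and 5 and 15 in the RNase mutant. Over all bins 12% were higher and 28.2% lower in the null, and 14.4% and 16.6% in the RNase mutant.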

How the data were processed

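Small RNA of 16 whole-male samples was cloned after acid pyrophosphatase treatment, per the labels' protocols. Per the submitters' processing notes, cutadapt 3.7 and FastQC 0.12.0 were used on the reads. The authors deposited whole-number counts of reads per 100 kb bin of ce11, with the genome total, per the file headers. The sources used here name no aligner and no rule for reads with several matches, so repeats can move reads between bins. RPM was computed from these counts and the genome total. All 1006 bins were tested in one edgeR 4.0.16 quasi-likelihood fit (R 4.3.3, limma 3.58.1) of the 16 libraries by genotype. The library size was the genome total, bins needed a count of at least 10 in 3 libraries, and p-values had Benjamini-Hochberg adjustment with a threshold of 0.05. Alternatives changed the scaling, tool (DESeq2 1.42.0), filter, libraries or block. The block of library sets parted the 13 libraries of the design text from wild type replicates 4 and 5 and null replicate 5. Named bins were the 10 with most wild type reads, up to 8 largest rises and falls per mutant among called bins without overlap, up to 5 each way between RNase mutant and null, and bins with listed genes. Members and lists were chosen with earlier results of these data known. Gene positions came from Ensembl (WBcel235, the same assembly as ce11) and names of 3 siRNA source genes from RefSeq. Counts per piRNA were not used here.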

Additional observations from a re-analysis of the deposited data

Results flagged for a closer look

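Among the named bins, 5 had a single wild type library far from the other 4, where chance alone would set apart about 1 group in 20 of the 122 groups examined. Wild type replicate 3 was the library in 4 of them. In the bin of scc-1 and hmg-11 (chromosome II 4600001 to 4700000) it was low, at 438 RPM against 787 to 906 RPM in the others. In the bin of msp-32, msp-33 and msp-40 (chromosome II 4800001 to 4900000) it was low at 395 RPM, against 1111 to 1400.3 RPM. It was also low in the bin of the histone variant gene his-72 (chromosome III 12300001 to 12400000), at 182 RPM against 405 to 479 RPM. In the bin of rde-4 (chromosome III 10200001 to 10300000) the same library was high, at 1173 RPM against 348 to 485 RPM. Wild type replicate 5 was high in the bin of a cluster of histone genes (chromosome II 13800001 to 13900000), at 8195 RPM against 609.9 to 792 RPM in the other wild type libraries.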

How the results depend on the processing

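Over 124 comparisons of a named bin, 70 of them called, the alternatives gave 2314 values, of which 2115 kept direction and side of the threshold, 155 lost a call, 41 gained one and 3 changed sign with a call. The count called in ΔPAZ against wild type, 40, was 14 with TMM factors, 15 with DESeq2 size factors, 23 with the DESeq2 Wald test, 11 in the 13 libraries of the design text, 20 with library sets as a block, and 0 with only these 2 genotypes in the fit, where 81 bins were lower and 0 higher at an unadjusted p under 0.05. Leaving out 1 library gave 0 to 135. Without ΔPAZ replicate 1, where the count was 0, 4 bins were higher and 72 lower at an unadjusted p under 0.05. RNase mutant against null called 106 bins with only these 2 genotypes in the fit, 64 higher and 42 lower. The cause of these moves was not tested. Leaving out 1 library gave 113 to 148 bins in the null and 70 to 122 in the RNase mutant against wild type. Between mutants it gave 46 to 56 bins for RNase mutant against null, 96 to 128 for ΔPAZ against null and 87 to 116 for RNase mutant against ΔPAZ.

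Same-numbered libraries were not paired in the main fit. For no 2 genotypes did the deviations of every same-numbered pair correlate by over 0.1 (0.01 to 0.35 for null and wild type, -0.32 to 0.35 over all pairs). Replicates 4 and 5 differed as a set from replicates 1 to 3, more clearly in the null than in wild type. Chi-square per degree of freedom over the 291 bins was 38.6 between null replicates 4 and 5. Between these and null replicates 1 to 3 it was 105 to 208. Among null replicates 1 to 3 it was 19.2 to 56.3. In wild type the values were 63.1 between replicates 4 and 5, 110 to 175 between the sets and 64.7 to 98.9 among replicates 1 to 3. The RNase mutant and ΔPAZ have replicates 1 to 3 only, so this split is partly mixed with genotype in their comparisons. The 13 libraries leave wild type with replicates 1 to 3 but keep null replicate 4. Library sets as a block likewise put null replicate 4 with replicates 1 to 3, so that block does not adjust for this split in null replicate 4. With the replicate block the counts were 125 in the null, 91 in the RNase mutant and 5 in ΔPAZ against wild type, and 58 for RNase mutant against null, 116 for ΔPAZ against null and 112 for RNase mutant against ΔPAZ. Under it the RNase mutant's calls were lost in the mir-80 group bin (log2 fold change 1.25, adjusted p = 0.054) and the C36A4.11 bin (adjusted p = 0.0736). The values that changed sign were the histone cluster bin at chromosome II 13800001 in the null, with log2 fold changes of 1.25 (adjusted p = 0.0369) in the 13 libraries and 1.29 (adjusted p = 0.013) without wild type replicate 5, against -0.30 and a range of -0.54 to 1.29 over all libraries left out in turn, and the bin of dpy-2 and dpy-10 at chromosome II 6700001 in the RNase mutant, with 1.11 (adjusted p = 0.0443) in the 13 libraries, against -0.06. Without the filter on low counts the counts called were the same. With a minimum of 50 they were 63 for RNase mutant against null and 116 for RNase mutant against ΔPAZ, 1 and 2 more, and the same in the other comparisons. The smallest library, with 396813 reads, still left every bin of chromosomes II and III with at least 10 reads.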
